A study of Mus musculus with 9 samples.

Results

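The 8 genes described here, Stmn1, Iqgap3, Runx1, Lrig1, Tnfrsf19, Sox9, Bmi1 and Prom1, have each been proposed as markers of stem or progenitor cells in the gastric gland. They were followed on all 22 probe sets that the array annotation pairs with exactly 1 of them, of 45037 probe sets in the table. Each of 9 samples of C57BL/6 mouse stomach cells was hybridised to its own Affymetrix Mouse430_2 array. The chief samples (3) are Mist1+Tomato+ cells of the gastric corpus, sorted by flow cytometry. The isthmus samples (3) are Mist1+Tomato+ corpus cells from stomachs whose Lgr5+ cells had been ablated. The parietal samples (3) are gastric parietal cells. Mist1 drives the secretory architecture of cells that release enzymes, Tomato is a red fluorescent reporter, and Lgr5 is a Wnt pathway receptor used as a stem cell marker. Which promoter drives the reporter, by what means cells were ablated, the ages of the mice, any pooling of animals and how parietal cells were collected: none of these is stated in the sources used here. Nothing says that the replicates were separate animals, so the p-values reflect the spread among these samples alone, and part of that spread may be technical.

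In the corpus gland, stem and progenitor cells of the isthmus divide to replace surface pit cells upward and parietal and neck cells downward, while chief cells sit at the base. Markers of the isthmus compartment fall into those carried by dividing cells and those read from surface receptors or transcription factors, and chief cells at the base have been proposed as a second, reserve source.

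Signals are on the log2 scale, and the median signal of an array lay between 5.80 and 6.70. A probe set was tested if it was above its own array's median on at least 3 of the 9 arrays, which held for 19 of the 22 and for 25662 probe sets in all. A call is a limma adjusted p under 0.05. Between isthmus and chief samples 0 of the 19 were called (limma), where 1.19% of all tested probe sets were, and 3 had an unadjusted p under 0.05, as did 15.3% of all tested. Both groups carry the Mist1+Tomato+ label, and nothing says that isthmus cells were removed from the chief samples. The 0 calls thus do not show that chief cells and isthmus cells have equal levels. Between parietal and chief samples 8 of 19 were called, against 18.2% of all. Of these, 7 were lower in parietal samples (10.6% of all tested) and 1 was higher (7.59%). Between isthmus and parietal samples 7 were called, against 20.3% of all. Of these, 4 were higher in isthmus samples (11.2% of all) and 3 lower (9.03%). Probe sets of 1 gene share their target, so the 8 and 7 calls stand for 6 and 5 genes, and any 2 of the comparisons share the arrays of 1 group.

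The median difference of the 19 was -0.08 log2 between isthmus and chief samples, -0.78 between parietal and chief and 0.74 between isthmus and parietal samples. Over all tested probe sets it was -0.03, -0.17 and 0.10. The 8 calls between parietal and chief samples became 4 without chief replicate 2, 3 without chief replicate 3, 5 without parietal replicate 2 and 5 without parietal replicate 3. The 7 between isthmus and parietal samples became 4 without isthmus replicate 2, which ended those of Bmi1, Prom1 and Lrig1 1434210_s_at. Without isthmus replicate 3 the same calls ended, while Tnfrsf19 1448147_at gained one. Without parietal replicate 1 those of Bmi1 and Lrig1 1434210_s_at ended. Centring each array on its median added 0.69 log2 to every parietal minus chief difference, 0.38 to every isthmus minus chief difference and -0.32 to every isthmus minus parietal difference. The parietal minus chief calls then split into 3 higher and 4 lower in place of 1 and 7, and over all probe sets 79.4% of calls were higher in place of 41.7%. Over all probe sets the centred calls were 77.9% higher in place of 18.7% between isthmus and chief samples, and 37.1% in place of 55.4% between isthmus and parietal samples.

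The labelled cell types were read from their markers. Of 9 parietal cell markers, all tested, 8 rose in parietal against chief samples, where 9.87% of all 11006 genes tested by their brightest probe set rose. The parietal markers were bright in every group all the same. Their summed signal was 24528 to 40493 in chief, 21613 to 36023 in isthmus and 79036 to 91521 in parietal samples. Of 8 chief cell markers tested, 5 fell in isthmus against chief samples and 0 rose, where 1.07% of all genes fell and 0.336% rose. Markers of other gastric cells also moved. Of 7 tested endocrine markers 5 fell in parietal against chief samples (median -7.15 log2), where 12.7% of all genes fell. In isthmus against parietal samples 5 were higher, where 14.3% of all genes were. The summed signal of that list was 40928 to 78656 in chief, 18832 to 42596 in isthmus and 481 to 738 in parietal samples, with none at 0 on any array. All 5 pit cell markers and 3 of 4 tested neck cell markers fell in parietal against chief samples (medians -1.04 and -2.09). In isthmus against chief samples 4 of the 5 pit cell markers and 1 of the 4 neck cell markers fell as well, and 0 rose. These lists move in the direction of Iqgap3, Runx1, Tnfrsf19 and Prom1 between parietal and chief samples, and their part in those differences was not tested. Lgr5 was 8.05, 7.54 and 9.36 log2 in chief samples, at most 5.97 in isthmus samples and at most 6.26 in parietal samples, and isthmus minus chief did not pass (limma adjusted p = 0.113) except with 64 added to the signal (0.042) or with values raised to the array median (0.0356). Bhlha15, which encodes Mist1, read 10.75, 10.05 and 9.20 on the chief arrays but 5.03, 1.34 and 7.36 on the isthmus arrays, although both carry the Mist1+ label (adjusted p = 0.141, and 0.0108 to 0.0304 in the 3 alternatives that passed it). Chief replicate 3 and parietal replicate 1 stood apart. They had Xist, the X inactivation RNA of female cells, at 11.72 and 13.13 log2, against 4.46 to 5.93 on the other arrays. Eif2s3y, a gene of the Y chromosome, was at 2.84 on parietal replicate 1 and at 10.63 on chief replicate 3, against 11.11 to 11.59 on the other arrays, so parietal replicate 1 was not a technical repeat of the other parietal samples. Chief replicate 3 also had Col1a1, a collagen, at 12.48 against at most 7.26 elsewhere. Without these 2 arrays the member calls were 0 between isthmus and chief samples, 3 between parietal and chief samples (Prom1 and both bright Runx1 probe sets) and 6 between isthmus and parietal samples, where only the Bmi1 call was lost. Calls over all probe sets also fell in both comparisons with chief samples (counts in the closing section), so the loss is not particular to the members.

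**Figure D1:**
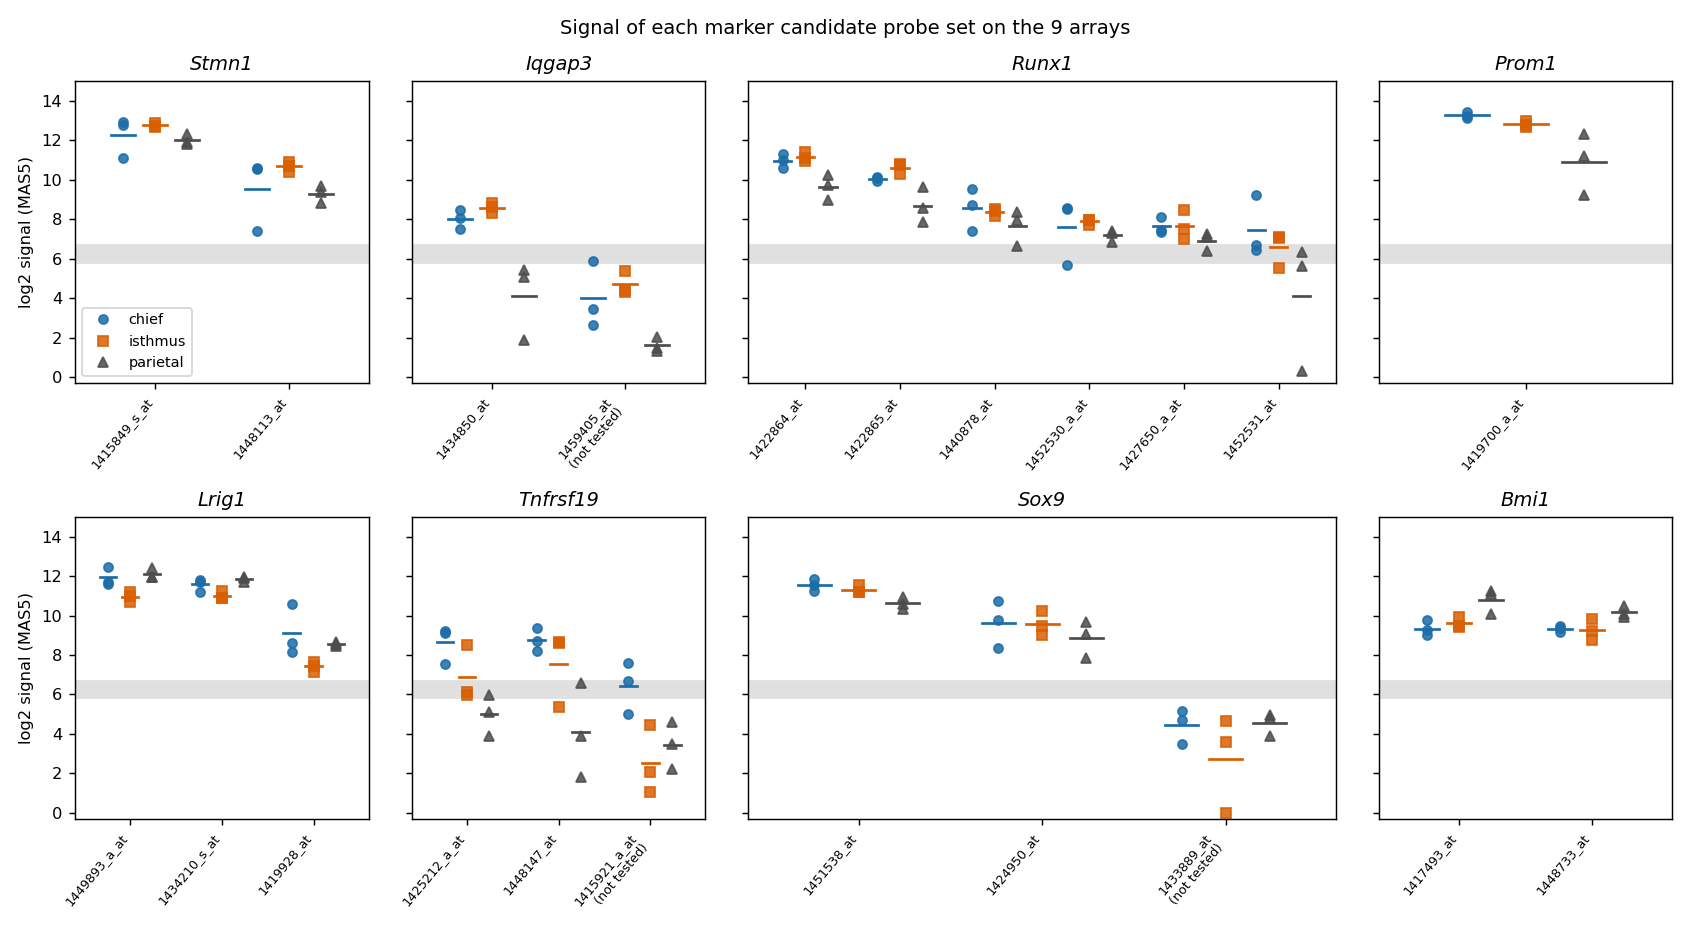
The log2 signal of each of the 22 probe sets on every array, by gene. Blue circles are chief, orange squares isthmus and grey triangles parietal samples (3 each), horizontal bars are group means, and the grey band spans the 9 array medians, 5.80 to 6.70. Iqgap3, Runx1, Tnfrsf19 and Prom1 lie lower in the parietal samples, Bmi1 lies higher there, and Lrig1 lies lowest in the isthmus samples.

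**Figure D2:**
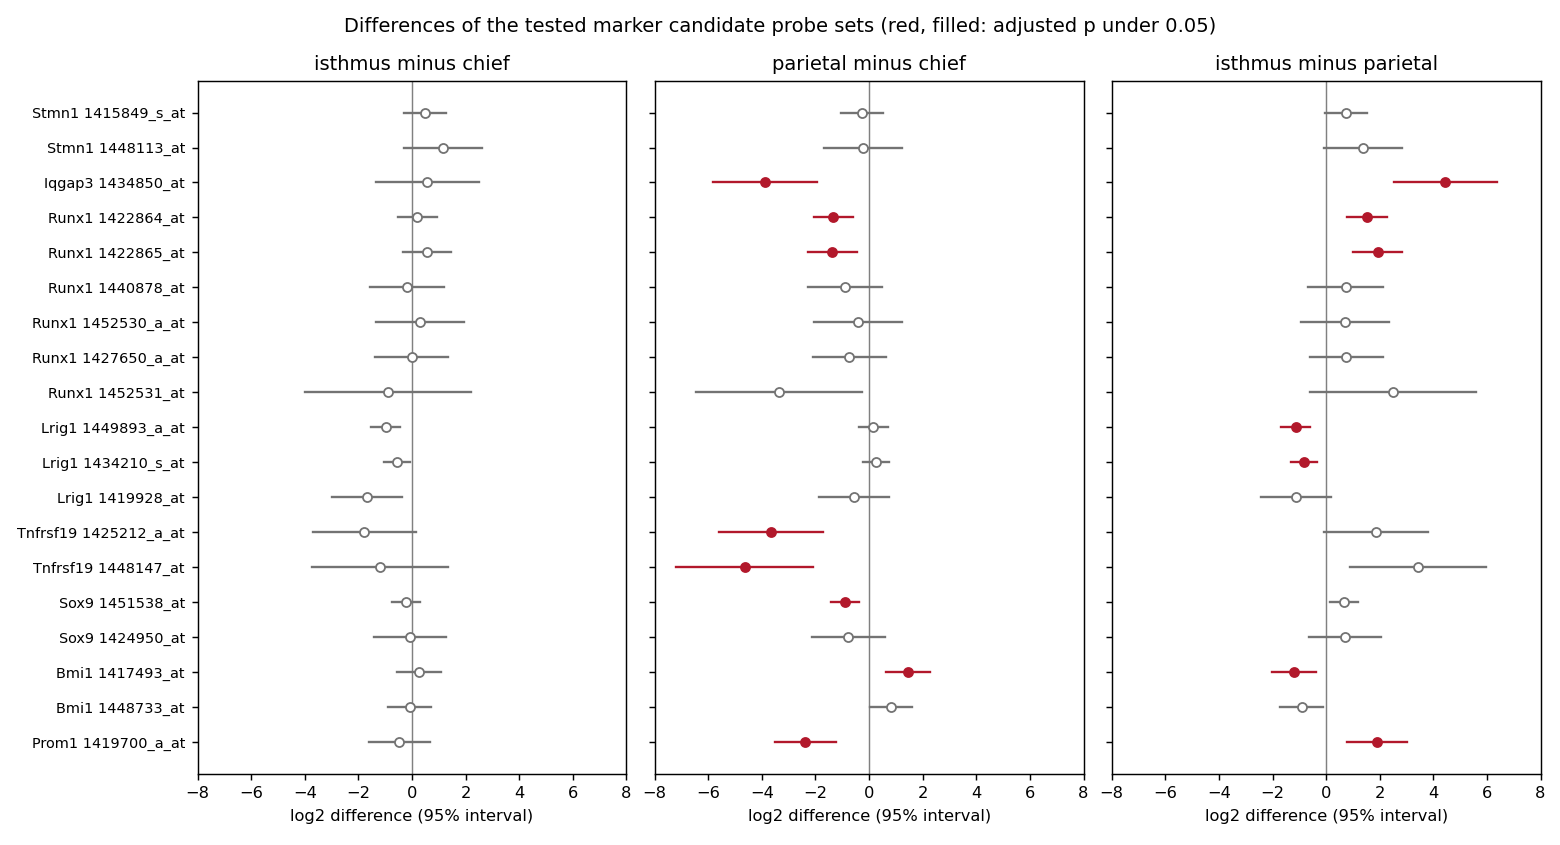
The log2 difference of each of the 19 tested probe sets in the 3 comparisons, with its 95% interval from the limma fit. Filled red points passed an adjusted p of 0.05, of which there are 0, 8 and 7 from left to right.

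Iqgap3, Prom1 and Bmi1 are shown by sequence, because Iqgap3 and Prom1 fell in parietal samples and Bmi1 rose. Each sequence is the 250 bases before a RefSeq start site (GRCm38.p6), written 5' to 3' on the gene's strand. The Bmi1 window ends where the gene starts, at 18677018. The Iqgap3 window runs past the outermost gene start, 88082002, and the Prom1 window lies within a gene that begins at 44102047 on its strand. Both of these windows thus precede a start site inside the gene. Capitals mark matches, on either strand, to CCAAT (the CCAAT box), to TTTGAA (the core of the CHR element of cell cycle genes) and to TTCCCGC or to its variant TTCGCGC (forms of the E2F site).
Iqgap3, chr3:88081801-88082050, plus strand: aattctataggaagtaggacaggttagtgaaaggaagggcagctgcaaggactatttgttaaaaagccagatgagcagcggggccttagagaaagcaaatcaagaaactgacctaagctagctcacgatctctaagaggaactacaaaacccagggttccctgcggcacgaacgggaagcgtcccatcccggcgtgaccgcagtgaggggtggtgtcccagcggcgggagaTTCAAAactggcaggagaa
Prom1, chr5:44101737-44101986, minus strand: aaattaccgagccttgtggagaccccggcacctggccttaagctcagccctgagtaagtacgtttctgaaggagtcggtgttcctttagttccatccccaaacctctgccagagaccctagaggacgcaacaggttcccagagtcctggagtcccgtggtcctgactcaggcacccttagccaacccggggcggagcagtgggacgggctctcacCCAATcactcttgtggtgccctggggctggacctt
Bmi1, chr2:18676768-18677017, plus strand: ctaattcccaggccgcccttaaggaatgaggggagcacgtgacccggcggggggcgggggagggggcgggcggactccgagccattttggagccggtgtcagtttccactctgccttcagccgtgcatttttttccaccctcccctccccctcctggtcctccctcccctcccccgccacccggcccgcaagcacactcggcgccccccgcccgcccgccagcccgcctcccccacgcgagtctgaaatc
RefSeq windows were found for 6 of the 8 genes, as 9 windows in all, with Runx1, Tnfrsf19 and Prom1 having 2 each. The Iqgap3 window held TTTGAA on the opposite strand, 19 to 14 bases before the start site used and so inside the gene. Of 32851 windows of this length 16% held that motif. Prom1 held CCAAT 35 to 31 bases before the inner start site of the window shown. The other Prom1 window and both Tnfrsf19 windows, which are not shown, had no match to any of the motifs. Lrig1 held 1 CCAAT and both Runx1 windows held 2, where 33.8% of windows had any. TTCCCGC and TTCGCGC, present in 3.82% and 1.28% of windows, had no match in the 9 windows, and the Bmi1 window had no match to any of the 4 motifs. A match is a description of these letters only.

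Stmn1 and Iqgap3 are the members tied to cell division. Stathmin, the product of Stmn1, destabilises microtubules, and Iqgap3 encodes a scaffold protein of dividing cells. By probe set 1434850_at, Iqgap3 read 7.52, 8.04 and 8.46 log2 on the chief arrays, against 8.80, 8.64 and 8.30 on the isthmus arrays and only 1.90, 5.08 and 5.40 on the parietal arrays. Every parietal array lay below its own array median and below every array of the other 2 groups, while chief and isthmus arrays overlapped. Iqgap3 was at least 4.50-fold lower in parietal than in chief samples (log2 difference -3.88 ± 0.89, SE; limma adjusted p = 0.00888) and at least 6.70-fold higher in isthmus than in parietal samples (4.45 ± 0.89; adjusted p = 0.00342). Here "at least" means that each dim value was first lifted to the median of its array, used in place of a background level. It does not cover the spread among samples, so true folds may be smaller. The 95% interval of the Iqgap3 parietal minus chief difference was -5.81 to -1.95 log2. Between isthmus and chief samples the difference was 0.57 (95% interval -1.36 to 2.50; adjusted p = 0.812). The isthmus against parietal call held in 20 of 20 alternatives (adjusted p of up to 0.0165). The parietal against chief call held in 19 and ended without chief replicate 3 and parietal replicate 1 together (adjusted p = 0.054). Without parietal replicate 1 alone the differences were -2.77 and 3.34 log2, and without parietal replicate 3 they were -4.52 and 5.09. The other Iqgap3 probe set, 1459405_at, lay below the array median on all 9 arrays and was not tested, with group means of 3.99, 4.70 and 1.61 in chief, isthmus and parietal samples.

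Stmn1 was bright in all groups. By probe set 1415849_s_at it was 11.08, 12.78 and 12.93 log2 on the chief arrays, 12.74, 12.65 and 12.85 on the isthmus arrays, with 11.92, 12.30 and 11.79 on the parietal arrays. By 1448113_at it was 7.39, 10.52 and 10.60, then 10.71, 10.39 and 10.92, then 8.83, 9.67 and 9.37 in the same order. On both probe sets chief replicate 1 was the lowest of the 9 arrays, and each isthmus array lay above each parietal array. An s in a probe set's name marks probes that can match several transcripts, so 1415849_s_at may read more than Stmn1, although both probe sets followed each other over the 9 arrays (r = 0.97). Neither passed the test in any comparison. Isthmus samples were 0.74 (95% interval -0.04 to 1.53) and 1.38 (-0.07 to 2.84) above parietal samples by the 2 probe sets (limma adjusted p = 0.177 and 0.174).

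In the comparisons with parietal samples, chief replicate 1 decided this for Stmn1. Without it Stmn1 was lower in parietal than in chief samples by both probe sets (-0.85 and -1.27, limma adjusted p = 0.00656 and 0.029). It was also higher in isthmus than in parietal samples (adjusted p = 0.0051 and 0.008). The isthmus minus parietal differences hold no chief array and kept their size, so the estimate of the spread is what changed. With only the isthmus and parietal arrays in the fit, those 2 differences also passed (adjusted p = 0.0079 and 0.0124). The isthmus minus chief difference of 1415849_s_at went from 0.48 with all arrays to -0.11 without chief replicate 1 (adjusted p = 0.843). Parietal minus chief, -0.26 and -0.21 with all arrays, turned to 0.43 and 0.48 when arrays were centred.

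A list of 28 proliferation genes, of which 27 were tested by their brightest probe set, was read beside both. Between parietal and chief samples 21 of 27 fell, 0 rose and 6 did not pass (median -3.07), where 12.7% of all 11006 genes tested this way fell and 9.87% rose, with a median of -0.10. Between isthmus and parietal samples 25 of 27 were higher and 0 lower (median 3.96), against 14.3% and 11.4% of all genes and a median of 0.09. Between isthmus and chief samples 0 passed by limma (median 1.11), against 0.336% higher and 1.07% lower of all genes and a median of 0.03. Centring the arrays gave 1 call there, higher in isthmus samples. Tpx2, a spindle assembly factor, was at least 20.1-fold higher in isthmus than in parietal samples, Top2a, a DNA topoisomerase, at least 30.7-fold, Foxm1, a cell cycle transcription factor, at least 9.15-fold and Bub1, a checkpoint kinase, at least 8.57-fold. Mki67, the Ki-67 antigen, was 21.1-fold lower in parietal than in chief samples (adjusted p = 4.29e-07).

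On chief replicate 1 the median of the 27 genes was 9.0 log2, against 9.91 and 9.97 on the other chief arrays, 10.15 to 11.02 on the isthmus arrays and 6.32 to 7.21 on the parietal arrays. The array lowest in Stmn1 was thus also the lowest chief array in the proliferation list. Levels of different probe sets are not on 1 scale and are not compared. In bulk samples, fewer cells of a type and less RNA per cell cannot be told apart, and this holds for every comparison here.

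**Figure D3:**
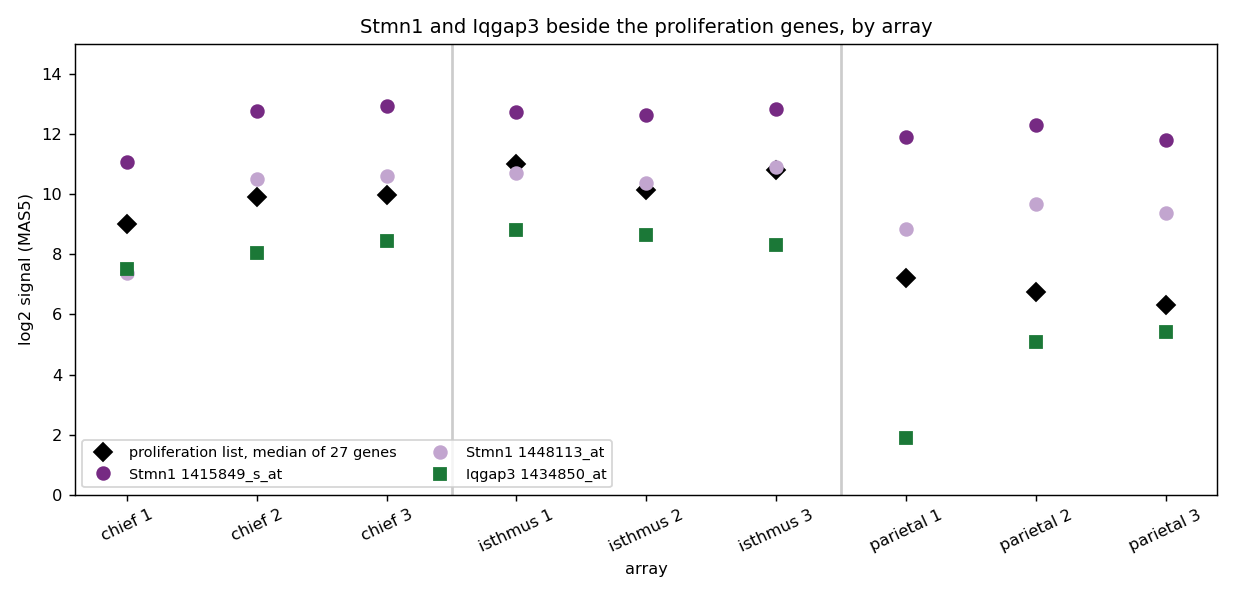
The log2 signal of Stmn1 (2 probe sets) and Iqgap3 on each array beside the median of the 27 tested proliferation genes (black diamonds). Each series is read across arrays, since levels of different probe sets are not on 1 scale. Stmn1 and the list are lowest among chief arrays on chief replicate 1, and Iqgap3 and the list are lower on every parietal array than on any other array.

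The relatives of Stmn1 and Iqgap3 were read for comparison. Stmn2, Stmn3 and Stmn4 were too dim to be tested. Iqgap1 had group means of 12.09, 12.18 and 12.25 log2 in chief, isthmus and parietal samples, and Iqgap2 was 1.79-fold higher in parietal than in chief samples (limma adjusted p = 0.0155). The Iqgap2 call ended without chief replicate 1 (adjusted p = 0.053), chief replicate 3 (0.0607) or parietal replicate 3 (0.0676). All 4 genes of that list, Iqgap1, Iqgap2 and the GTPases Cdc42 and Rac1, were called higher in parietal samples once arrays were centred. Over all 25662 probe sets tested, centring raised the number called higher in parietal than in chief samples from 1948 to 5230. Before centring, parietal minus chief was 0.16, 0.84, -0.02 and -0.08 in that order, with only Iqgap2 called. For Cdc42 and Rac1 the direction thus rests on the scaling, and for Iqgap1 the call does. Iqgap3 stayed lower in parietal samples under each scaling.

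Runx1, a DNA-binding factor best known from blood formation, has an enhancer that is active in gastric isthmus cells. It has 6 probe sets here. By 1422864_at it was 10.99, 10.57 and 11.32 log2 on the chief arrays, 11.38, 11.12 and 10.96 on the isthmus arrays, with 10.22, 8.95 and 9.72 on the parietal arrays. By 1422865_at it was 10.09, 10.16 and 9.91, then 10.72, 10.30 and 10.82, then 9.61, 7.85 and 8.59 in the same order. On both, each parietal array lay below each array of the other groups, and parietal replicate 2 was the lowest.

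Isthmus samples were 2.87-fold and 3.81-fold above parietal samples by these 2 probe sets (limma adjusted p = 0.00664 and 0.00579), calls that held in every alternative in which they were tested (20 of 20 and 19 of 19, adjusted p of up to 0.0364 and 0.0274). Parietal samples were 2.51-fold and 2.58-fold below chief samples (adjusted p = 0.0157 and 0.0384). Those 2 calls ended once arrays were centred (adjusted p = 0.223 and 0.291) and without an intensity trend (0.0622 and 0.0849). The first also ended without chief replicate 3 (0.0654) or parietal replicate 2 (0.0618). The second held in 7 of 19 alternatives and ended without chief replicate 1, 2 or 3 (0.0803, 0.0928 and 0.0691), isthmus replicate 1 or 3 (0.0502 and 0.0527) or parietal replicate 2 or 3 (0.142 and 0.0976). Between isthmus and chief samples the differences were 0.19 (95% interval -0.54 to 0.93) and 0.56 (-0.35 to 1.47), with adjusted p of 0.837 and 0.575. By 1422865_at each isthmus array lay above each chief array all the same.

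The other 4 Runx1 probe sets, 1440878_at, 1452530_a_at, 1427650_a_at and 1452531_at, were dimmer, with group means of 4.08 to 8.54 log2, and gave no call. Their parietal means were below their chief means, by 0.41 to 0.90 log2 for the first 3 and at least 2.71-fold for 1452531_at. The 2 bright probe sets followed each other over the 9 arrays (r = 0.92), whereas r between either and the other 4 was 0.21 to 0.56. By 1452531_at parietal replicate 1 read 0.28 against 6.33 and 5.64 on the other parietal arrays.

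Because Runx1 is also a factor of blood and tuft cells, markers of those cells were read on the same arrays. Of 10 leukocyte markers 2 passed the filter on low values, and the summed signal of the list was 4456 to 6081 in chief, 4063 to 4744 in isthmus and 5522 to 6949 in parietal samples. Most of it came from Lcp1, the actin bundling protein plastin, at 12.03 to 12.53 log2 by group. Ptprc, the CD45 antigen that defines leukocytes, had group means of 5.32, 2.82 and 2.39 in chief, isthmus and parietal samples and was at 0 on parietal replicate 2, with its highest value, 8.80, on chief replicate 3. Of 7 tuft markers with a probe set 4 were tested, and their summed signal was 1665 to 4696 in chief, 2525 to 4130 in isthmus and 208 to 483 in parietal samples, with none at 0 on any array. Most of that sum came from Avil, an actin-binding protein, at 10.75, 11.19 and 7.15 log2 by group. Avil and Alox5ap fell in parietal against chief samples, while Dclk1 (1.79 log2) and Sh2d6 (-3.77) did not pass (limma adjusted p = 0.513 and 0.15). Of the erythroid markers 3 were tested, with summed signals of 3917 to 24401 in chief, 3199 to 3431 in isthmus and 2570 to 2884 in parietal samples. In isthmus and parietal samples most of that sum came from the 1 probe set of Hba-a2. Its means were 11.82, 11.66 and 11.37 log2 in chief, isthmus and parietal samples. Hbb-b2, a haemoglobin chain, read 9.84, 9.56 and 14.11 log2 on the chief arrays and at most 5.84 elsewhere, was at 0 on isthmus replicate 1 and fell in parietal against chief samples (-8.62; adjusted p = 0.00477). The part of these cells in the Runx1 difference was not tested.

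Of 6 genes of the Runx family and its cofactors 4 were tested. Cbfb, the partner subunit, had group means of 11.56, 11.85 and 11.28 log2. Runx1t1, a corepressor known from its leukaemic fusion with RUNX1, was 7.86, 8.25 and 8.21 log2 on the chief arrays, 10.45, 9.39 and 6.47 on the isthmus arrays, with 12.38, 12.19 and 12.01 on the parietal arrays. It was 17.0-fold higher in parietal than in chief samples (limma adjusted p = 0.00187), the opposite direction to Runx1. The isthmus arrays spread widely, with replicate 3 below every chief array.

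Sox9, a transcription factor of progenitors in many endodermal glands, had 1 bright probe set, 1451538_at. It read 11.24, 11.54 and 11.83 log2 on the chief arrays, 11.17, 11.19 and 11.55 on the isthmus arrays, with 10.94, 10.60 and 10.35 on the parietal arrays. Each parietal array was below each array of the other groups. Sox9 was 1.87-fold lower in parietal than in chief samples (limma adjusted p = 0.0216), 1.59-fold higher in isthmus than in parietal samples (adjusted p = 0.0719, not passing), and isthmus minus chief was -0.23 (95% interval -0.76 to 0.30; adjusted p = 0.704). The call held in 13 of 20 alternatives. It ended once arrays were centred, with a difference of -0.21 (adjusted p = 0.581), and without chief replicate 2 (0.0516), chief replicate 3 (0.0843), parietal replicate 2 (0.0596) or parietal replicate 3 (0.0878). The isthmus minus chief difference turned to 0.14 once arrays were centred.

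Sox9 probe set 1424950_at, with means of 9.63, 9.56 and 8.85 log2, gave no call, and 1433889_at lay below the array median on all arrays, was at 0 on isthmus replicate 1 and was not tested. Of the 6 related Sox genes listed, 3 were tested. Sox5 was at least 4.75-fold lower and Sox13 4.15-fold lower in parietal than in chief samples (adjusted p = 0.00923 and 0.0219), and Sox4 had means of 10.63, 10.58 and 11.19. The Sox13 call ended without chief replicate 1 (0.0792), without parietal replicate 3 (0.0854) and once arrays were centred (0.109).

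Bmi1, a subunit of Polycomb repressive complex 1 that silences genes through histone H2A ubiquitination, was the only member called higher in parietal than in chief samples, joined by Lrig1 once arrays were centred. By 1417493_at it was 9.25, 9.75 and 8.99 log2 on the chief arrays, 9.45, 9.44 and 9.91 on the isthmus arrays, with 11.08, 10.06 and 11.23 on the parietal arrays. By 1448733_at it was 9.19, 9.37 and 9.46, then 9.80, 9.21 and 8.76, then 10.48, 9.93 and 10.07 in the same order. On both probe sets each parietal array was above each array of the other groups, and chief and isthmus arrays overlapped.

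By 1417493_at Bmi1 was 2.75-fold higher in parietal than in chief samples (limma adjusted p = 0.018) and 2.28-fold higher in parietal than in isthmus samples (adjusted p = 0.0427). By 1448733_at these were 1.77-fold and 1.87-fold and did not pass (adjusted p = 0.15 and 0.106), except that the first passed once arrays were centred (0.016). Isthmus minus chief was 0.27 (95% interval -0.56 to 1.10) and -0.08 (-0.88 to 0.72). The first call ended without chief replicate 3 (adjusted p = 0.0606), parietal replicate 1 (0.0742) or parietal replicate 3 (0.0899). The second ended without any 1 isthmus array (0.108, 0.108 and 0.056 for replicates 1, 2 and 3), without parietal replicate 1 (0.147) or 3 (0.174), with a replicate block (0.0624), without the filter (0.0674) and without an intensity trend (0.0813).

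Of 17 other genes of this complex and its target Cdkn2a, 14 were tested. Between parietal and chief samples 3 fell and 0 rose (median -0.41), where 12.7% of all genes fell and 9.87% rose. The 3 were the chromodomain subunits Cbx6 (-2.36; limma adjusted p = 0.00568) and Cbx7 (-2.15; 0.0474) and the Bmi1 relative Pcgf3 (-1.11; 0.0452). Between isthmus and parietal samples 2 were higher in isthmus samples and 0 lower, namely Cbx6 and Pcgf3, where 14.3% of all genes were higher, so this count is at the background. The Cbx7 call ended without chief replicate 1 or 3, any 1 parietal array or isthmus replicate 2 (adjusted p = 0.0539 to 0.161), and that of Pcgf3 against chief samples without any 1 array other than chief replicate 1 (0.0582 to 0.148). The count of 3 became 1 without chief replicate 3, without parietal replicate 1, 2 or 3 and without isthmus replicate 2. Rnf2, the catalytic subunit, had means of 9.34, 10.17 and 9.34 log2. Cdkn2a, a classical target of Bmi1 silencing, was too dim to be tested.

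Lrig1, a transmembrane protein that restrains receptors of the EGF family, was the member that stood lowest in the isthmus samples. By 1449893_a_at it was 11.72, 12.46 and 11.61 log2 on the chief arrays, 11.20, 10.97 and 10.69 on the isthmus arrays, with 11.93, 12.40 and 11.93 on the parietal arrays. By 1434210_s_at it was 11.72, 11.82 and 11.20, then 11.26, 10.89 and 10.88, then 11.93, 11.90 and 11.69, and by 1419928_at it was 8.60, 10.56 and 8.15, then 7.16, 7.44 and 7.66, then 8.45, 8.55 and 8.66. On all 3 probe sets each isthmus array lay below each parietal array, and on 1449893_a_at and 1419928_at also below each chief array.

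Isthmus samples were 2.19-fold below parietal samples by 1449893_a_at (limma adjusted p = 0.00644), a call that ended only without an intensity trend (0.0554). By 1434210_s_at they were 1.78-fold below (adjusted p = 0.0176), which ended without isthmus replicate 2 or 3 (0.0561 and 0.0556) or parietal replicate 1 or 2 (0.0634 and 0.0607). That call also ended without an intensity trend (0.0845). By 1419928_at the difference was -1.13 (adjusted p = 0.216). Isthmus minus chief was -0.98 (95% interval -1.52 to -0.43), -0.57 (-1.05 to -0.09) and -1.68 (-2.98 to -0.38), with adjusted p of 0.0836, 0.242 and 0.203. These 3 probe sets of Lrig1 were those with an unadjusted p under 0.05 in that comparison, and none passed after adjustment. Parietal minus chief was 0.16, 0.26 and -0.55, with none called, although 1434210_s_at passed once arrays were centred (0.95; adjusted p = 0.025).

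Of the 7 relatives and receptors listed with Lrig1, 6 were tested. Between isthmus and parietal samples 3 were higher in isthmus samples and 0 lower, where 14.3% of all genes were higher and 11.4% lower. These 3 went in the opposite direction to Lrig1. They were Egfr, the EGF receptor, at least 5.46-fold (limma adjusted p = 0.0235), Erbb2, 5.70-fold (0.0119) and Erbb3, 3.96-fold (0.000179). Without isthmus replicate 1, isthmus replicate 2 or parietal replicate 3 the Egfr call ended (0.0719, 0.0782 and 0.0833), and without isthmus replicate 3 that of Erbb2 did (0.0593). Erbb3 was 11.47, 11.08 and 11.76 log2 on the chief arrays, 11.85, 12.03 and 12.46 on the isthmus arrays, with 10.45, 9.92 and 10.01 on the parietal arrays, so that no isthmus array overlapped another group. Met, the hepatocyte growth factor receptor, was 2.58-fold higher in parietal than in chief samples (0.0128), a call that ended without parietal replicate 2 (0.0508) or 3 (0.0506). Erbb2 and Erbb3 were 4.43-fold and 2.48-fold lower in parietal than in chief samples (0.0291 and 0.00345), calls that both ended once arrays were centred (0.109 and 0.0958), and that of Erbb2 also without chief replicate 1 (0.112) or parietal replicate 1 (0.0607) or 2 (0.0974). Lrig2 and Lrig3 gave no call in any comparison.

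Tnfrsf19, also called Troy, is a receptor of the tumour necrosis factor family and a Wnt target that has been used to mark chief cells able to act as stem cells. By 1425212_a_at it was 7.56, 9.23 and 9.13 log2 on the chief arrays, 5.98, 6.13 and 8.49 on the isthmus arrays, with 5.11, 5.97 and 3.90 on the parietal arrays. By 1448147_at it was 8.20, 9.36 and 8.71, then 8.64, 8.63 and 5.39, then 1.83, 3.90 and 6.60. Chief arrays were all above their medians and above every parietal array on both. The isthmus arrays disagreed between the probe sets, replicate 3 being the highest isthmus array on one and the lowest on the other (r = 0.46 between them over the 9 arrays).

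Tnfrsf19 was at least 6.71-fold and at least 6.38-fold lower in parietal than in chief samples (limma adjusted p = 0.0128 and 0.0149). The 95% intervals of the log2 differences, without lifting dim values, were -5.58 to -1.71 and -7.18 to -2.11. The first call ended without chief replicate 2 or 3 (adjusted p = 0.0541 and 0.0547) and the second without chief replicate 2 (0.0559) or without an intensity trend (0.055). Both ended without chief replicate 3 and parietal replicate 1 together (0.0931 and 0.103). The second was -3.51 log2 without parietal replicate 1 and -5.89 without parietal replicate 3, against -4.65 with all arrays. Isthmus minus chief was -1.77 (95% interval -3.71 to 0.16) and -1.20 (-3.74 to 1.33), with adjusted p of 0.377 and 0.678. Isthmus minus parietal was 1.87 and 3.44 (adjusted p = 0.167 and 0.055), and the latter passed without isthmus replicate 3 (0.0201) or parietal replicate 3 (0.0145). The 1415921_a_at probe set, above the array median on 2 arrays, was not tested. It read 6.68, 7.60 and 4.99 on the chief arrays, 2.09, 4.45 and 1.05 on the isthmus arrays, with 3.49, 4.63 and 2.20 on the parietal arrays, so that each chief array lay above all others. Tnfrsf21, a death domain receptor of the same family, was 13.2-fold lower in parietal than in chief samples and 12.7-fold higher in isthmus than in parietal samples (limma adjusted p = 3.4e-05 and 3.78e-05).

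Fibroblast markers were read beside Tnfrsf19 and Lrig1, which connective tissue also expresses. Of 8 such markers 2 were tested, and their summed signal was 252 to 26038 in chief, 99.7 to 179 in isthmus and 160 to 384 in parietal samples, with Lum at 0 on isthmus replicate 3 and Pdgfra at 0 on parietal replicate 3. The upper end is chief replicate 3, the array with the high Col1a1 signal. Without it the parietal minus chief difference of Tnfrsf19 was -3.40 by 1425212_a_at (limma adjusted p = 0.0547, no longer passing) and -4.67 by 1448147_at (0.0449). The Lrig1 difference between isthmus and parietal samples holds no chief array, so leaving this array out cannot change its size. It can only change the shared estimate of the spread, and it says nothing on fibroblasts in the isthmus and parietal samples. The part of fibroblasts in these differences was not tested.

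Prom1, the membrane glycoprotein CD133 of plasma membrane protrusions, had 1 probe set, 1419700_a_at. It read 13.43, 13.13 and 13.25 log2 on the chief arrays, 12.66, 12.99 and 12.75 on the isthmus arrays, with 12.30, 9.20 and 11.18 on the parietal arrays. The 3 groups did not overlap, in the order chief, isthmus, parietal, and parietal samples spread widely (SD 1.57, against 0.15 and 0.17). Prom1 was 5.19-fold lower in parietal than in chief samples (limma adjusted p = 0.0068) and 3.75-fold higher in isthmus than in parietal samples (adjusted p = 0.0205). Isthmus minus chief was -0.47 (95% interval -1.60 to 0.66; adjusted p = 0.722). The first call ended only without an intensity trend (adjusted p = 0.0623). The second also ended so (0.105), and without isthmus replicate 2 (0.0618) or 3 (0.0509). Parietal replicate 2 carried much of both folds, since without it the differences were -1.53 and 1.06 log2 (adjusted p = 0.00233 and 0.0161), and without parietal replicate 1 they were -3.08 and 2.61.

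Prom2, the second prominin, followed another order. It was 9.46, 8.65 and 9.15 log2 on the chief arrays, 6.64, 5.78 and 6.68 on the isthmus arrays, with 8.15, 7.69 and 8.88 on the parietal arrays. Each isthmus array lay below every other array. Prom2 was at least 5.95-fold lower in isthmus than in chief samples (limma adjusted p = 0.0398), a call that ended without any 1 array other than parietal replicate 2 or isthmus replicate 3 (0.0573 to 0.152 without the other 7) and once arrays were centred (0.0646). It was at least 3.31-fold lower in isthmus than in parietal samples (0.0317), which ended without parietal replicate 1 or 3 (0.0706 and 0.136) or isthmus replicate 2 (0.0916). Prom1 and Prom2 are compared by their own differences only, since signals of different probe sets are not on 1 scale.

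A list of 25 other stem and progenitor markers, 20 of them tested, was read in the same way. Between parietal and chief samples 10 fell, 2 rose and 8 did not pass (median -2.22), where 12.7% of all genes fell and 9.87% rose. Bhlha15, the RNA-binding protein gene Msi1 and the Wnt feedback gene Axin2 were at least 14.3-fold, at least 12.8-fold and at least 7.50-fold lower (limma adjusted p = 0.0189, 0.00152 and 0.000501). The Bhlha15 call ended without chief replicate 1 or 2 (0.0685 and 0.0564) or parietal replicate 3 (0.0646). Olfm4, a secreted marker of intestinal stem cells, was at least 7.36-fold higher in parietal than in chief samples (0.00827), and the other gene that rose was Aldh1a1, a retinaldehyde dehydrogenase (1.52 log2).

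Between isthmus and parietal samples 8 of the 20 were higher and 2 lower (median 0.68), where 14.3% and 11.4% of all genes were. Cd44, a hyaluronan receptor of dividing gastric cells, was at least 11.1-fold higher (limma adjusted p = 0.00372), Aqp5, a water channel, at least 11.2-fold (0.00338), Axin2 at least 5.88-fold (0.000765) and Krt19, a keratin, 4.73-fold (9.1e-07). Between isthmus and chief samples 0 of the 20 passed by limma (median -0.24), while 4 or 5, all lower, passed when 16 or 64 was added to the signal or values were raised to the array median. With single arrays left out, 1 was lower without parietal replicate 1, 2 were lower without isthmus replicate 3, and 1 was higher and 1 lower without chief replicate 2. Centring the arrays gave 1 call, higher, in that comparison, 4 higher and 7 lower between parietal and chief samples, and 5 higher and 3 lower between isthmus and parietal samples. The list was written with earlier results of these data known, so its counts support nothing on their own.

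**Figure D4:**
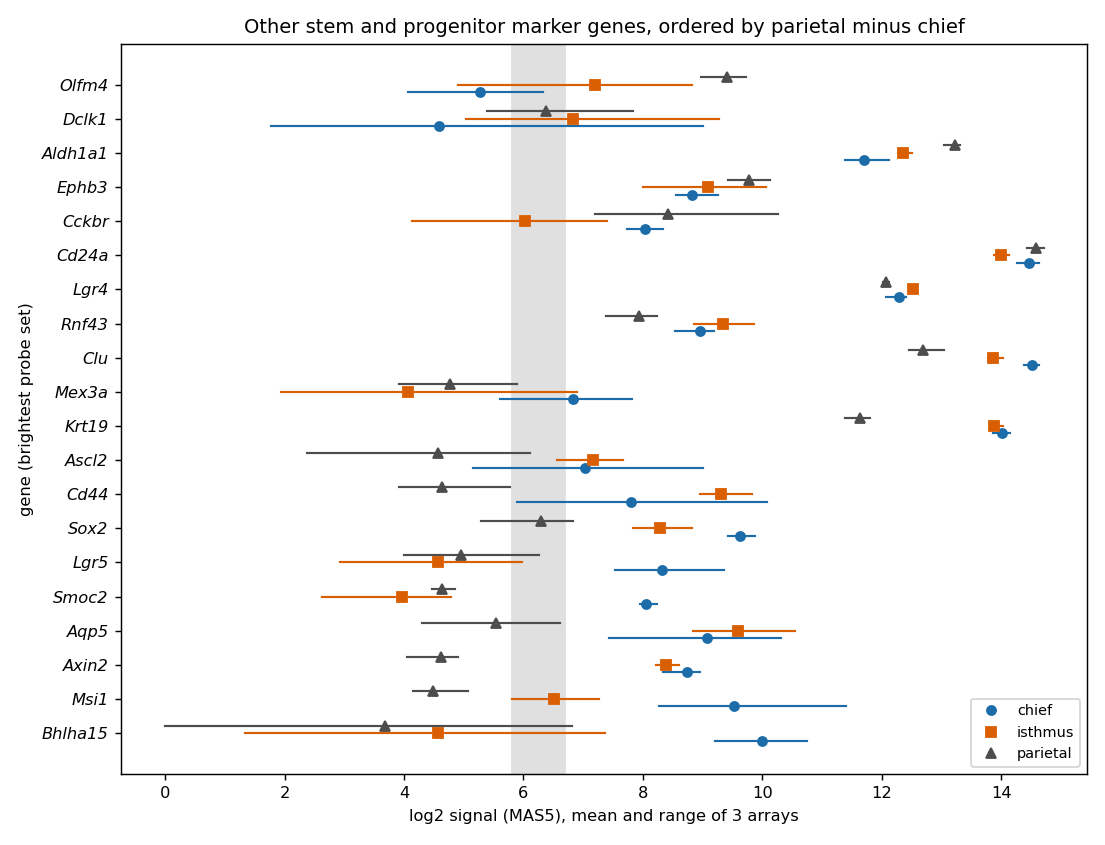
The log2 signal of the 20 tested genes of the other stem and progenitor list, by the brightest probe set of each, as mean and range of 3 arrays, ordered by the parietal minus chief difference. The grey band spans the array medians, 5.80 to 6.70. Olfm4 and Aldh1a1 lie highest in parietal samples, and the parietal means of Axin2, Msi1 and Bhlha15 lie below the band.

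Genes with the most similar signals over the 9 arrays were taken for the brightest probe set of each member, as Pearson's r over 9 arrays that fall into 3 groups, which alone can give a high r. For Iqgap3 they were Slc23a3 (r = 0.99) and Tmprss4 (0.99), and for Runx1 Chic2 (0.98) and Pcsk6 (0.98). For Prom1 they were Kbtbd11 (0.98) and Syk (0.98), and for Sox9 Phldb1 (0.98) and Pfn1 (0.97). For Tnfrsf19 they were Dqx1 (0.96) and Dap (0.95), for Bmi1 Atrn (0.96) and Folr1 (0.95), for Lrig1 Phf3 (0.95) and Cnnm3 (0.95), and for Stmn1 Mob1a (0.95) and Heatr6 (0.95). Group means show the shared order. Tmprss4, a membrane serine protease, was 9.97, 10.06 and 3.18 log2 in chief, isthmus and parietal samples, and Phf3, like Lrig1, was lowest in isthmus samples, at 10.30, 9.07 and 10.55.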

How the data were processed

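The table that the authors deposited holds a log2 signal for every probe set on each array. The submitters' processing notes name MAS5, Affymetrix's summary of probe brightness. How values were logged and floored at 0 is not stated, and base 2 was settled from the values. Array medians differ, so centring and quantile normalization were tried as alternatives. No detection calls were used, and the array median stands in for background. Genes were named from the platform annotation, and sequences come from RefSeq (GRCm38.p6).

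Groups were taken from the sample titles. A linear model with moderated, intensity-trended variances (limma 3.58.1 under R 4.3.3) was fitted to all probe sets above their array's median on at least 3 arrays, with a mean for each of 3 groups, 6 residual degrees of freedom, two-sided tests and Benjamini-Hochberg adjustment over 25662 probe sets. The fit was tested on simulated data. Lists use each gene's brightest probe set. Named are all member probe sets, per list up to 4 called genes with the largest differences or else the brightest, the 2 most similar genes per member, and Lgr5, Bhlha15 and Mki67. Genes such as Cbfb, Iqgap1, Rnf2, Sox4, Lcp1, Ptprc, Avil, Alox5ap, Dclk1, Sh2d6, Hbb-b2, Col1a1, Xist, Eif2s3y and Aldh1a1 were added after their values were seen. Members and lists were chosen with earlier results of these data known. The number of arrays limits the precision.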

Additional observations from a re-analysis of the deposited data

How the results depend on the processing

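Of 20 alternatives, 3 of the 15 calls on member probe sets (Iqgap3 and both bright Runx1 probe sets, isthmus against parietal) held in each one that tested them, and no call changed sign. Of 1107 member values, 1017 kept direction and side of the threshold, 53 lost a call, 10 gained one and 27 uncalled values turned sign. Member calls stayed at 0 between isthmus and chief samples throughout. They went from 8 to 3 between parietal and chief samples without an intensity trend and also without chief replicate 3 and parietal replicate 1 together, and ranged from 3 to 9 with single arrays left out. Between isthmus and parietal samples they went from 7 to 3 without the trend and ranged from 4 to 9. Over all probe sets, isthmus against chief calls went from 305 to 517 with 64 added to the signal, 471 with values raised to the array median, 203 after quantile normalization, 150 without the filter, 32 without the trend, 162 with only the 6 arrays compared and 44 without both named arrays, and ranged from 31 to 371. Parietal against chief calls went from 4674 to 3063 without the trend and 2571 without both named arrays, and ranged from 3234 to 4583 with single arrays left out. Those between isthmus and parietal samples, 5200, ranged from 3718 to 5543.

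Centring turned uncalled isthmus minus chief values to 0.31 and 0.14 for Sox9 (1424950_at and 1451538_at), 0.20 for Runx1 1440878_at and 0.29 for Bmi1 1448733_at. It turned parietal minus chief values to 0.43 and 0.48 for Stmn1, 0.14 for Lrig1 1419928_at and 0.28 for Runx1 1452530_a_at, the last being 0.045 after quantile normalization. Raising values to the median turned Lgr5 to 0.16 between isthmus and parietal samples. Values that turned when arrays were left out ranged, for isthmus minus chief, from -0.11 to 0.82 for Stmn1 1415849_s_at, -0.71 to 0.50 for Sox9 1424950_at, -0.75 to 0.32 for Runx1 1440878_at, -0.67 to 0.78 for 1452530_a_at, -1.39 to 0.0067 for 1452531_at and -0.355 to 0.165 for Bmi1 1448733_at. For parietal minus chief they ranged from -0.85 to 0.115 and -1.27 to 0.565 for Stmn1, -1.03 to 0.18 for Lrig1 1419928_at and -1.38 to 0.073 for Runx1 1452530_a_at. For isthmus minus parietal they ranged from -1.08 to 0.44 for Lgr5 and -0.94 to 2.52 for Bhlha15. The cause was not tested.

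Samples of different groups share only a replicate number: deviations from the group means correlated at -0.01 to 0.04 over 9 pairs of arrays of the same number and at -0.04 to 0.02 over 18 other pairs, so no pairing was used. With a replicate block the counts over all probe sets were 272, 4486 and 5019, and the member counts 0, 8 and 6, the Bmi1 call between isthmus and parietal samples being the one lost. Signals below the array median give bounds only, which limits the folds of Iqgap3, Tnfrsf19 and Runx1 1452531_at.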
